A study of Mus musculus with 4 samples.

Results

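The Janus kinase (JAK) and signal transducer and activator of transcription (STAT) genes and their feedback inhibitors were followed in LSK cells, the Lineage-negative, Sca-1-positive and cKit-positive bone marrow fraction that holds the hematopoietic stem cells. The 10 genes were chosen by symbol from the 32285 genes of the count matrices. They are the suppressors of cytokine signaling Socs1, Socs2, Socs3 and Cish, the kinases Jak1 and Jak2, the transcription factors Stat3, Stat5a and Stat5b, and the kinase Pim1, a gene known to follow STAT activity. Cells came from C57BL/6 mice that were wild type (Sin3B F/F) or lacked Sin3B in hematopoietic cells (Sin3B F/F with the Vav1-iCre transgene, here called knockout), Sin3B being a scaffold of histone deacetylase complexes. Vav1-iCre is active from embryonic life in all blood lineages, so the deletion was not limited to stem cells. Mice were untreated, or had received 100 mg/kg of the antimetabolite 5-fluorouracil (5-FU), which kills dividing cells, 9 days before harvest. The untreated mice were male per the study's methods. Cells of 2 mice were combined for each genotype and condition, tagged with a hashtag antibody that differed by genotype (against CD45 for wild type and CD45.2 for knockout), and both genotypes were run together in 1 library per condition. The 4 samples of the series are the cDNA and the hashtag library of each condition. Condition and library therefore coincide and cannot be told apart, and genotypes were compared within a library, with 1 pool of cells each.

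Many cytokine receptors carry no kinase of their own and signal through JAKs bound to their tails. The JAKs phosphorylate STAT proteins, which then enter the nucleus and switch on genes, among them those of the SOCS family. SOCS proteins bind the receptor or the JAK and dampen the signal, so that their transcripts are often read as a record of recent signaling. Signaling through JAK2 and STAT5 is known to maintain long-term hematopoietic stem cells (LT-HSCs).

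STAT dimers are known to bind the palindrome TTCNNNGAA. It was searched in the RefSeq promoter windows of the genes (250 bases before to 50 after the annotated start, build GRCm38.p6). The palindrome reads the same on both strands. Of 32851 windows of this length, 2726 (8.30%) held the motif and 150 (0.457%) held it 2 or more times. A window was found for 9 of the 10 genes, the exception being Socs2, and 2 of the 9 had the motif. Their windows are shown, with the motif in capitals, because Cish passed the genotype fit in LT-HSC-like cells and the level of Socs3 differed between libraries and clusters.
Cish: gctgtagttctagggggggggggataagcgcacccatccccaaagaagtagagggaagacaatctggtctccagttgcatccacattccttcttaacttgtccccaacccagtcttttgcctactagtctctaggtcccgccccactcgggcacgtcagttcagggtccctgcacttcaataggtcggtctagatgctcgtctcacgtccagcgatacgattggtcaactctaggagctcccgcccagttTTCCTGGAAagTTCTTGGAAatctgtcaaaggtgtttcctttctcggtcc
Socs3: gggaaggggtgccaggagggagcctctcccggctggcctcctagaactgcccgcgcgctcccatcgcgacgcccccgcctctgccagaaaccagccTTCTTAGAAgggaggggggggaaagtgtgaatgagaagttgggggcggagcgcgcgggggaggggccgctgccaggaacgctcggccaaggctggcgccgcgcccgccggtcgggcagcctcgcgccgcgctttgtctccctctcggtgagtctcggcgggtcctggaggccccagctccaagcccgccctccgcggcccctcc
The Cish window lies at chr9:107296409-107296708 on the plus strand. Its 2 motifs begin at base 1 and base 12 counted from the RefSeq start and do not overlap. The Socs3 window lies at chr11:117969317-117969616 on the minus strand, and its motif begins at base -154. GENCODE places the Socs3 starts elsewhere, at base 117969186 for the coding transcripts, downstream of the window, and at bases 117969451 and 117970047 for other transcripts, so the distance from a start depends on the annotation. For Cish the GENCODE coding transcripts start at bases 107296026, 107296710 and 107296912, none inside the window. In the GENCODE annotation of the same build, Socs2 is a protein-coding gene at chr10:95385362-95417180 on the minus strand. Pim1 lies at chr17:29490753-29496112 on the plus strand, and no motif was found in either of its 2 windows. Stat5b, Stat5a and Stat3 are neighbours on chromosome 11, between bases 100780731 and 100939540. A motif match is a description of sequence only.

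After tag assignment and quality filters, 10329 wild-type and 4139 knockout cells were kept from the untreated library and 4884 and 3313 from the 5-FU library, with a median of 6990, 6616, 9303 and 10954 unique molecular identifiers (UMIs, 1 per captured transcript) per cell. The targeted gene was checked first. Sin3b stood at 81.8 CPM (counts brought to an equal total for each pool) in untreated wild-type cells and 23.2 in knockout cells, and after 5-FU at 112 and 15.1, lower in the knockout in both libraries. Tag separation was weaker in the untreated library, where requiring 80% of a cell's tag counts to come from 1 tag kept 6241 wild-type and 881 knockout cells, against 4979 and 4061 after 5-FU. Of the cells called, 6283 untreated and 3290 5-FU cells carried no tag and were left out, and 76 barcodes were called as cells in both libraries. Each library was clustered separately without the JAK-STAT genes. Clusters were named from markers of stem, megakaryocyte-erythroid (MkE), neutrophil, lymphoid, dividing and class II antigen-presenting cells. Untreated cluster 7 had 5 of the 8 neutrophil markers raised but was led by the replication genes Ung, E2f1 and Uhrf1, with Ctsg the only neutrophil marker among its 10 leading genes, and it is called cluster 7 here. Untreated cluster 10, whose leading genes include Elane, Mpo and Ms4a3, stayed unnamed with 4 of the 8 markers. The LT-HSC-like name of untreated cluster 8 was borderline. It had 6 of 9 markers raised 1.5-fold and 0 raised 2-fold, whereas untreated cluster 2 and the 3 LT-HSC-like clusters of the 5-FU library kept the name at 2-fold. Values of clusters 2 and 8 are therefore also given apart. The lymphoid-primed-like name was borderline too. In the 5-FU library it rested on cluster 4 (5 of 8 markers), which lost it when markers had to be raised 2-fold, and cluster 8 (6 of 8 markers, led by genes such as Dntt and Ighm) then took it. In the untreated library cluster 9 (5 of 8) lost it at 2-fold and cluster 12 (7 of 8) kept it. In wild-type LT-HSC-like cells, the summed level of the 9 LT-HSC markers was 3408 CPM untreated and 1785 after 5-FU, against 1671 and 935 in all kept cells. All 9 were detected. The clusters were named by these same markers, so the higher sum follows from the naming and is no separate check of it. Cluster sizes differed between genotypes. LT-HSC-like cells were 12.4% of wild-type and 42.04% of knockout cells in the untreated library (8.40% and 25.4% with cluster 2 alone), and 25.3% and 27.9% after 5-FU. Untreated cluster 3, which stayed unnamed, was also uneven. It made up 31.4% of the knockout pool but only 1.27% of the wild-type pool. Agbl4, Elavl4 and Gm42031 were leading genes both there and in the LT-HSC-like cluster 8. Comparisons between classes cover named clusters only, so the highest and lowest classes given below leave out cells of unnamed clusters. In values over all kept cells, fewer cells of a type and less RNA per cell cannot be told apart.

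Among the classes compared, the feedback genes Socs2 and Cish were highest in LT-HSC-like cells of untreated wild-type mice. In the untreated library Socs2 stood at 24.8 CPM in LT-HSC-like cells (95% counting interval 21.9 to 28.1, and 34.9 CPM in cluster 2 alone), at 10.4 in MkE-primed-like, 3.54 in dividing-like, 3.15 in cluster 7 and 2.68 in lymphoid-primed-like cells. The intervals of the 3 lowest overlapped, whereas the LT-HSC-like and MkE-primed-like cells stood apart from each other and from the rest. After 5-FU it was again highest in LT-HSC-like cells, at 33.9 CPM, where its interval overlapped that of MkE-primed-like cells at 29.2, and lowest in class II presenting-like cells at 6.06. Cish, which binds activated cytokine receptors, stood at 33.8 CPM in untreated LT-HSC-like cells and between 4.06 and 9.93 in the other 4 classes. After 5-FU, class II presenting-like cells at 43.5 CPM and LT-HSC-like cells at 38.7 had overlapping intervals, and neutrophil-primed-like cells at 8.99 were lowest. These classes rest on counts of cells from 1 pool per genotype, and intervals here cover counting error only.

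Socs3, the inhibitor of gp130-type receptors, and Pim1, a survival kinase, had another order. In wild-type cells both were highest in lymphoid-primed-like cells as named here, at 10.6 CPM for Socs3 and 517 for Pim1, with LT-HSC-like cells next at 9.16 and 506. The intervals of these 2 classes overlapped for both genes in the untreated library. After 5-FU the lymphoid-primed-like cells stood above the LT-HSC-like cells, at 80.1 against 63.7 CPM for Socs3 and 775 against 710 for Pim1. This order rested on the naming of cluster 4. In cluster 8, the lymphoid-primed-like cluster at 2-fold, Socs3 stood at 23.5 CPM and Pim1 at 392, below the LT-HSC-like cells. MkE-primed-like cells were lowest for Socs3, at 3.55 and 13.9 CPM, with intervals that overlapped those of the class next above. Dividing-like cells were lowest for Pim1, at 223 and 297 CPM, apart from all other classes.

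The kinases and STATs varied less between classes. Among untreated wild-type cells the highest class stood 1.61-fold above the lowest for Jak1, which serves gp130 and interferon receptors, 2.11-fold for Jak2, which serves the erythropoietin receptor, 1.83-fold for Stat3 and 1.28-fold for Stat5b. For Socs2 and Cish the same ratio was 9.27 and 8.32. Jak1, Jak2, Stat3 and Stat5b were highest in LT-HSC-like cells and lowest in cluster 7 in the untreated library. The LT-HSC-like interval overlapped that of MkE-primed-like cells for Jak2 and that of lymphoid-primed-like cells for Stat5b, so these were not resolved as highest. Stat5a, the close paralog of Stat5b, was instead highest in MkE-primed-like cells, at 90.8 CPM, and lowest in lymphoid-primed-like cells, at 44.9. Its MkE-primed-like interval was separate from all others, and it was also highest there after 5-FU, at 81.1 CPM. Socs1, which inhibits JAKs directly, stood between 3.75 CPM in dividing-like and 9.16 in LT-HSC-like untreated cells, and the interval of each class overlapped that of the next in order.

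**Figure D1:**
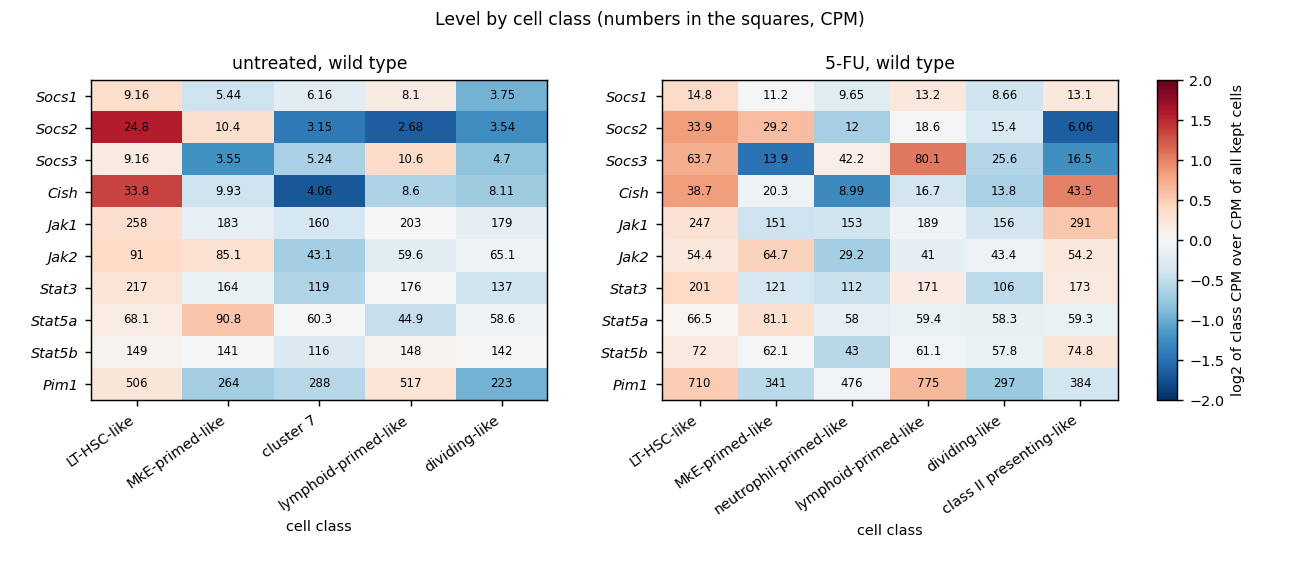
Level of each gene in wild-type cells by marker-named class in the untreated (left) and 5-FU (right) libraries. Colour is the log2 of the class CPM over the CPM of all kept wild-type cells and the number in each square is the CPM. Socs2 and Cish are darkest red in LT-HSC-like cells before treatment (24.8 and 33.8 CPM), and Stat5a is highest in MkE-primed-like cells in both libraries. Cluster 7 is the untreated cluster led by replication genes.

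To ask which of these genes depended on Sin3B, knockout cells were compared with wild-type cells within each library. A gene was called when it had at least 50 UMIs over both pools and differed by at least 1.5-fold. In all kept untreated cells, 2 of the 10 genes were called higher (Socs2 and Cish) and 0 lower, where 5.53% of 15553 genes were called higher and 5.1% lower. In all kept 5-FU cells 1 was called higher (Socs2) and 0 lower, where 3.58% of 13536 genes were called higher and 4.96% lower. In LT-HSC-like cells, Socs2 and Cish were called higher in both libraries, against 2.2% of genes untreated and 4.82% after 5-FU. In the same cells 0 were called lower untreated and 2 after 5-FU (Socs3 and Pim1), against 4.38% and 4.2% of genes. The only fit with a test took the 4 pools together, with library as a block and 1 residual degree of freedom (edgeR quasi-likelihood, Benjamini-Hochberg adjusted over all genes tested). In all kept cells it called 1 of the 10 genes higher and 0 lower, against 0.327% and 0.23% of 16489 genes. In LT-HSC-like cells it called 2 higher and 0 lower, against 0.207% and 0.118% of 13551 genes. The 10 genes were chosen with earlier results of these data known, so the shares give scale and do not test the set. Its p-values set the genotype difference against how far that difference varied between the 2 libraries, with information shared across genes. They do not measure the spread between mice.

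Socs2, whose product dampens growth hormone and STAT5 signals, was higher in knockout cells of both libraries. In all kept cells it stood at 8.36 CPM in untreated wild type, 22.8 in untreated knockout, 19.1 in 5-FU wild type and 40.8 in 5-FU knockout. Both knockout pools were above both wild-type pools. The knockout-to-wild-type log2 ratio was 1.45 (95% counting interval 1.29 to 1.60) untreated and 1.096 (0.985 to 1.21) after 5-FU, at percentiles 99.2 and 99.1 of the log2 ratios of all genes measured. The fitted log2 fold change was 1.28 ± 0.11 (SE), with an edgeR adjusted p = 0.0292. In LT-HSC-like cells the 4 pools stood at 24.8, 45.4, 33.9 and 64.7 CPM in the same order, and again the knockout pools were the higher ones. The log2 ratios there were 0.87 (0.65 to 1.09) and 0.93 (0.74 to 1.12), and the fit gave 0.92 ± 0.10 (SE) with an edgeR adjusted p = 0.0126.

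The higher Socs2 level was seen inside clusters too. Of 8 untreated clusters with at least 50 UMIs of Socs2 and 20 cells of each genotype, 7 had a ratio above 0 and 2 had an interval wholly above 0, the LT-HSC-like clusters 2 and 8. In cluster 2, led by Ncam2 and Pdgfc, Socs2 stood at 34.9 CPM in wild-type and 67.4 in knockout cells, and in cluster 8, led by Agbl4 and Elavl4, at 11.9 and 22.1. After 5-FU, 9 of 10 clusters had an interval wholly above 0, and the remaining cluster 12 was at 0.00 (median of the 10 clusters 1.07). When cells were matched by cluster, the log2 ratio was 0.83 in all kept untreated cells, against 1.45 unmatched, and 0.99 after 5-FU. By class after 5-FU, Socs2 stood at 12.0 CPM in wild-type and 31.4 in knockout neutrophil-primed-like cells, at 29.2 and 53.4 in MkE-primed-like cells and at 15.5 and 31.5 in dividing-like cells, each ratio having an interval above 0. In untreated MkE-primed-like and dividing-like cells the intervals covered 0 (-0.17 to 1.21 and -0.22 to 1.32). With cells thinned to 4000 UMIs, the share of LT-HSC-like cells with a Socs2 UMI was 8.99% in wild type and 16.8% in knockout untreated, and 11.3% and 19.7% after 5-FU (unthinned 14.95%, 23.6%, 23.7% and 39.5%). In untreated cluster 7, which is low in Socs2, the thinned shares were 1.30% and 1.66%, and in 5-FU cluster 8, with the fewest Socs2 UMIs, they were 0.322% and 2.78%. Median depth was 9677.5 UMIs per cell in cluster 7 against 5632.5 and 8583.5 in the LT-HSC-like clusters 2 and 8 of that library, and 9287 in 5-FU cluster 8 against 7439 to 10231. The share of UMIs from free RNA was not measured, and its part was not tested.

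Cish was also higher in knockout LT-HSC-like cells as 1 class, but not inside the 5-FU LT-HSC-like clusters. In LT-HSC-like cells it stood at 33.8 CPM in untreated wild type, 54.2 in untreated knockout, 38.7 in 5-FU wild type and 69.6 in 5-FU knockout. Both knockout pools were above both wild-type pools, with log2 ratios of 0.68 (0.49 to 0.87) and 0.85 (0.67 to 1.03) and a fit of 0.78 ± 0.10 (SE), edgeR adjusted p = 0.0211. With library size scaling in place of TMM the adjusted p was 0.0534. In all kept cells Cish stood at 13.2, 29.5, 21.7 and 30.6 CPM. Its log2 ratios were 1.16 (1.03 to 1.29) and 0.50 (0.38 to 0.61), and fell as low as 0.51 and 0.21 over the processing alternatives. The fit there gave 0.84 ± 0.16 (SE) and an edgeR adjusted p = 0.114. In MkE-primed-like cells the log2 ratio was 0.94 (0.29 to 1.59) untreated and 0.46 (0.14 to 0.78) after 5-FU. In the remaining classes apart from LT-HSC-like cells the intervals covered 0. Across all clusters measured, 7 of 9 untreated and 9 of 11 5-FU ratios were above 0, with 3 and 1 intervals wholly above 0. Within the untreated LT-HSC-like clusters Cish was also higher in the knockout, at 42.8 against 72.8 CPM in cluster 2 and 22.2 against 34.4 in cluster 8. Within the 5-FU LT-HSC-like clusters the intervals covered 0, and the log2 ratio was 0.15 (-0.14 to 0.45) in cluster 2, 0.16 (-0.19 to 0.49) in cluster 10 and -0.13 (-0.83 to 0.61) in cluster 13. Matched by cluster, the 5-FU LT-HSC-like ratio of Cish was 0.13. Cluster 2, led by Cyp26b1 and Dnm3, had the higher Cish level (85.5 CPM in wild type, against 31.4 in cluster 10) and held 602 of the 923 knockout LT-HSC-like cells, but 209 of the 1238 wild-type ones.

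**Figure D2:**
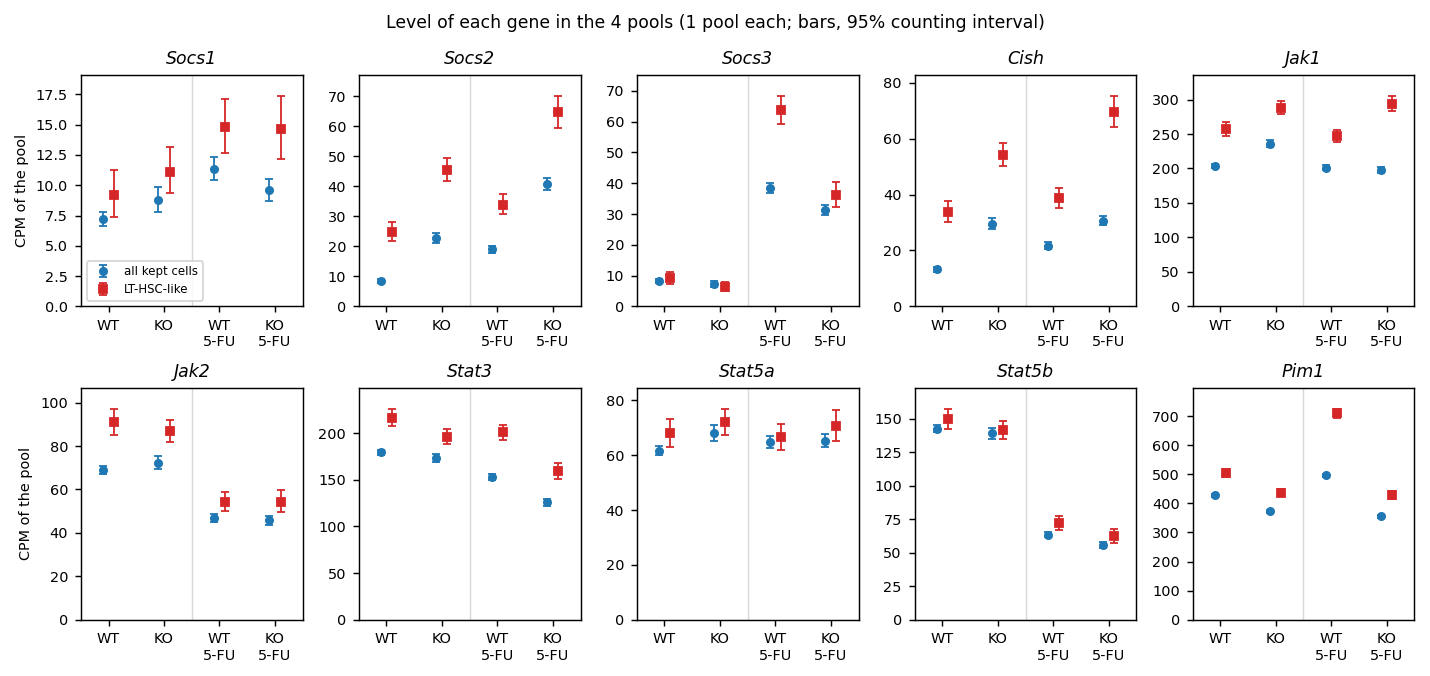
CPM of each gene in the 4 pools (WT wild type, KO knockout, left pair untreated, right pair 5-FU) for all kept cells (blue circles) and LT-HSC-like cells (red squares), with 95% counting intervals. Socs2 is higher in the knockout pool of each pair, and Socs3 is higher and Stat5b lower in the 5-FU than in the untreated library in both genotypes.

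Socs3 had a genotype difference that changed with the cells compared. In LT-HSC-like cells it stood at 9.16 CPM in untreated wild type, 6.28 in untreated knockout, 63.7 in 5-FU wild type and 36.1 in 5-FU knockout. The knockout pool was the lower one in each library, with log2 ratios of -0.54 (-0.997 to -0.095) and -0.82 (-1.02 to -0.63), and the fit gave -0.72 ± 0.13 (SE) with an edgeR adjusted p = 0.0748. Within clusters the 5-FU difference was uneven. Socs3 stood at 72.6 CPM in wild-type and 92.8 in knockout cells of cluster 10, led by Meg3 and Wfdc17, and its log2 ratio there was 0.36 (0.14 to 0.56). Cluster 2 had little Socs3, with 24 UMIs of wild-type and 19 of knockout origin (17.2 and 3.95 CPM), under the count minimum. In cluster 13 the ratio was 0.38 (-0.53 to 1.42), on 14 wild-type and 34 knockout UMIs, also under that minimum. Cluster 10 held 961 wild-type and 220 knockout cells, and the ratio matched by cluster was 0.16. Among untreated cells, cluster 2 had a log2 ratio of -1.13 (-1.87 to -0.45) and cluster 8 of -0.09 (-0.71 to 0.55). Across all clusters measured, 4 of 8 untreated and 3 of 10 5-FU ratios were above 0, and after 5-FU 2 intervals lay wholly above and 2 wholly below 0 (median -0.09). In 5-FU lymphoid-primed-like cells, which hold 23 knockout cells, Socs3 stood at 80.1 and 36.0 CPM. Markers of lymphoid-primed cells summed over 8 genes to 405 CPM in wild-type and 354 in knockout LT-HSC-like cells untreated, and to 133 and 37.8 after 5-FU. The 6 T or NK cell markers summed to 36.8 and 27.4 CPM untreated and to 76.0 and 20.4 after 5-FU, with Cd3e and Cd3g at 0 in all 4 pools. Cd3d, Cd3e and Cd3g were among the 9 lineage genes used to remove cells, so their counts were limited by that filter. The part of the lymphoid and the T or NK cell markers in the Socs3 and Pim1 ratios was not tested.

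Pim1 was lower in knockout cells in every cluster that held at least 20 cells of each genotype, 14 untreated and 13 after 5-FU. Of 1030 genes with at least 50 UMIs in all these clusters of both libraries, 0.194% were lower in every one and 0.874% higher. Within a library these shares were 1.75% lower and 1.94% higher untreated, and 4.84% and 2.68% after 5-FU. The interval was wholly below 0 in 11 of the 14 and 12 of the 13 clusters. Clusters of a library are parts of the same 2 pools, here and for the other genes, and are not independent observations. The background shares take in genes with as few as 50 UMIs in a cluster, whose direction is more open to counting error. The Pim1 differences were small, with a median log2 ratio of -0.30 over untreated and -0.33 over 5-FU clusters. In all kept cells Pim1 stood at 428 CPM in untreated wild type, 372 in untreated knockout, 497 in 5-FU wild type and 356 in 5-FU knockout, and both knockout pools were below both wild-type pools. The log2 ratios were -0.20 (-0.23 to -0.17) and -0.48 (-0.51 to -0.45), at percentiles 19.2 and 6.996 of all genes. In LT-HSC-like cells the pools stood at 506, 437, 710 and 430 CPM, with ratios of -0.21 (-0.27 to -0.16) and -0.72 (-0.78 to -0.67), and the 5-FU ratio matched by cluster was -0.30. The fit did not pass the threshold, at -0.33 ± 0.09 (SE) in all kept cells (edgeR adjusted p = 0.229) and -0.45 ± 0.13 in LT-HSC-like cells (edgeR adjusted p = 0.229).

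**Figure D3:**
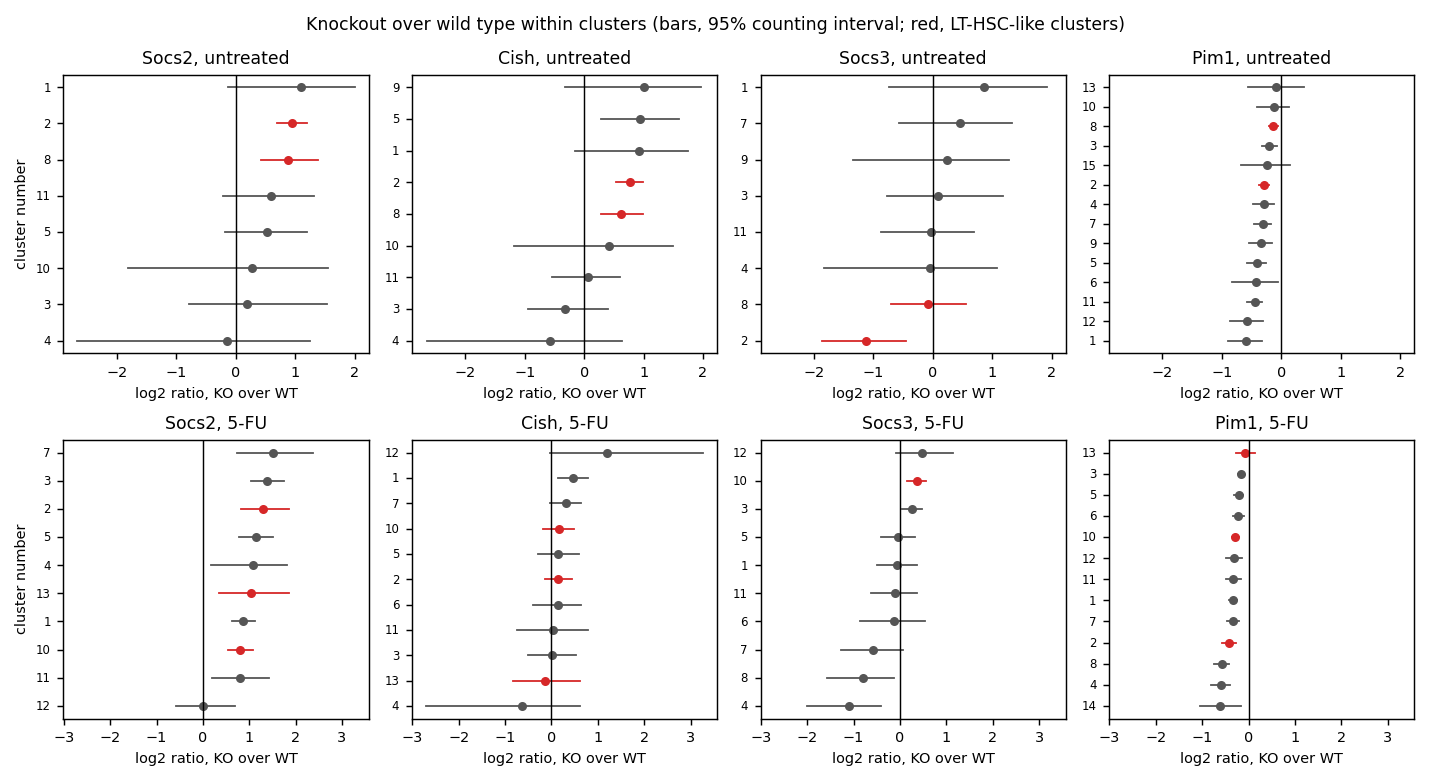
Knockout-to-wild-type log2 ratio within each cluster that had at least 50 UMIs of the gene and 20 cells of each genotype, untreated (top) and 5-FU (bottom), with 95% counting intervals and LT-HSC-like clusters in red. All Pim1 points lie below 0, Socs2 lies above 0 in 9 of 10 5-FU clusters by its interval, and Socs3 lies on both sides.

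The other 6 genes differed by less than 1.5-fold between genotypes in all kept and in LT-HSC-like cells of both libraries, and none passed the edgeR fit at an adjusted p under 0.05 (at an unadjusted p under 0.05, Jak1 and Stat3 passed in LT-HSC-like cells, as did 1514 of all genes). Stat3 stood at 217 CPM in untreated wild-type LT-HSC-like cells, 196 in knockout, 201 in 5-FU wild type and 159 in 5-FU knockout, with log2 ratios of -0.14 (-0.23 to -0.06) and -0.33 (-0.43 to -0.24). Matched by cluster the 5-FU ratio of Stat3 was -0.12. It was below 0 in 12 of 14 untreated and 12 of 13 5-FU clusters. Jak1 in the same cells stood at 258, 288, 247 and 294 CPM, the knockout being higher in each library by 0.16 (0.09 to 0.23) and 0.25 (0.17 to 0.33) on the log2 scale. Matched by cluster the 5-FU ratio of Jak1 was 0.085, and in all kept 5-FU cells its interval covered 0. Jak2 had an interval covering 0 in all 4 of these comparisons, the widest being -0.20 to 0.06 untreated and -0.18 to 0.17 after 5-FU in LT-HSC-like cells. Stat5a lay at 0.08 (-0.06 to 0.23) and 0.09 (-0.07 to 0.24) in LT-HSC-like cells, and Stat5b at -0.08 (-0.18 to 0.02) and -0.21 (-0.37 to -0.05). Socs1, with 93 to 174 UMIs in an LT-HSC-like pool, lay at 0.28 (-0.11 to 0.67) and -0.02 (-0.36 to 0.32). Some intervals in other classes left out 0. In 5-FU MkE-primed-like cells Jak2 lay at -0.25 (-0.45 to -0.06), Stat5a at -0.24 (-0.41 to -0.06) and Stat5b at -0.31 (-0.52 to -0.11). The untreated MkE-primed-like intervals of these genes covered 0. Jak1 lay at -0.30 (-0.42 to -0.19) in 5-FU dividing-like cells, and Stat5a at 0.22 (0.02 to 0.41) in untreated ones.

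**Figure D4:**
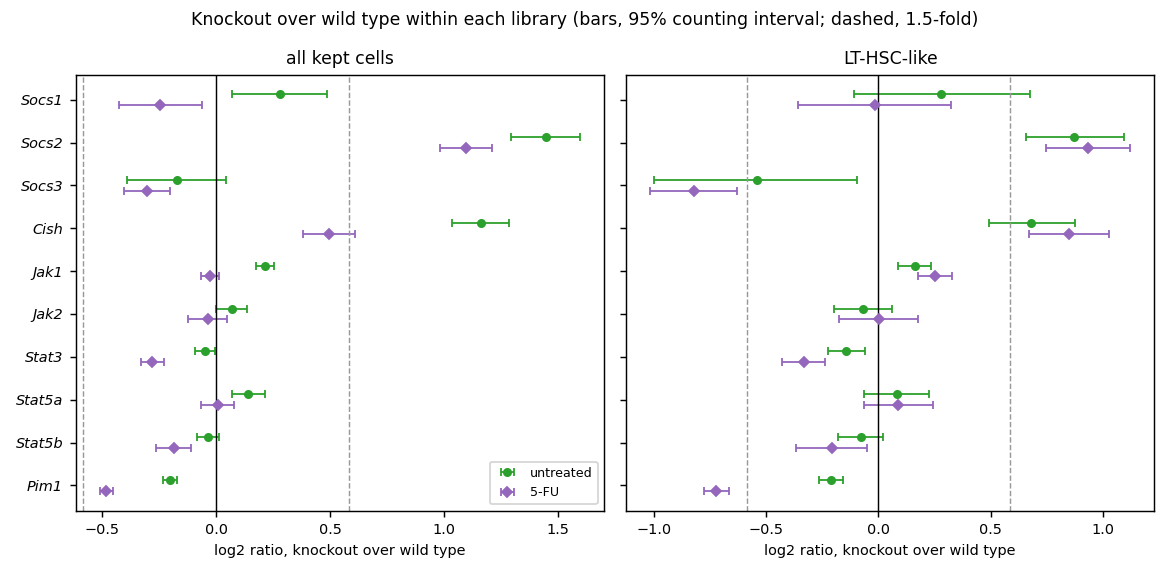
Knockout-to-wild-type log2 ratio for each gene in all kept cells (left) and LT-HSC-like cells (right) of the untreated (green circles) and 5-FU (purple diamonds) libraries, with 95% counting intervals. Dashed lines mark 1.5-fold, and Socs2 lies beyond the upper line in all 4 comparisons.

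Levels in the untreated and 5-FU libraries are given side by side, since treatment, library and Cell Ranger version changed together. The summed level of the LT-HSC markers in LT-HSC-like cells also differed between the libraries, as given above. In wild-type LT-HSC-like cells Socs3 stood at 9.16 CPM (7.40 to 11.2) untreated and 63.7 (59.2 to 68.5) after 5-FU, and in knockout cells at 6.28 and 36.1. Stat5b went the other way, with 149 CPM untreated and 72.0 after 5-FU in wild-type and 141 and 62.3 in knockout LT-HSC-like cells, and no intervals overlapping between libraries. Jak2 stood at 91.0 and 54.4 CPM in wild-type cells, whereas Stat5a, at 68.1 and 66.5, had overlapping intervals. Immediate early genes, which rise when cells are stimulated or dissociated, had a summed level of 450 CPM in untreated and 2158 in 5-FU wild-type LT-HSC-like cells, and 261 and 1749 in knockout ones. The part of these genes in the Socs3 values was not tested.

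The rest of the pathway moved little with genotype. None of the 4 other SOCS genes (Socs4 to Socs7), the 2 other JAKs, the 4 other STATs or the 12 other negative regulators was called in either direction in all kept or LT-HSC-like cells of either library, and their medians lay within 0.21 of 0 on the log2 scale. Of 17 cytokine receptor genes measured in all kept 5-FU cells, 0 were called higher and 2 lower (Lifr and Il7r, named after their values were seen). Of 15 measured other genes known to follow STAT3 or STAT5, Id1, an inhibitor of differentiation factors, was called higher in all kept cells of both libraries, from 0.66 to 1.02 CPM (56 and 33 UMIs) and from 3.37 to 7.75 CPM. The untreated interval of Id1 covered 0 (-0.04 to 1.27). No other gene of the list was called higher in all kept cells, against 5.53% and 3.58% of all genes. In untreated LT-HSC-like cells 0 of 14 were called higher and 1 lower, against 2.2% and 4.38% of all genes. In 5-FU ones 3 of 15, Id1 among them, were called higher and 1 lower, against 4.82% and 4.2%. Pim2, the paralog of Pim1 and named after its values were seen, was called lower in the 5-FU knockout, at 27.9 against 17.8 CPM in all kept cells.

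Of 9 immediate early genes measured, 3 were called lower in the knockout and 0 higher in all kept untreated cells, and again 3 and 0 after 5-FU (median log2 ratios -0.35 and -0.53, against 0.01 and -0.02 over all genes). In untreated LT-HSC-like cells 5 of 9 were called lower and 0 higher (median -0.64), and in 5-FU ones 2 and 0 (median -0.12). Of all genes, 5.1% and 4.96% were called lower in all kept cells of the 2 libraries, and 4.38% and 4.2% in LT-HSC-like cells. The untreated median was below 0 in the other named classes too. It was -0.75 in MkE-primed-like cells, -0.74 in cluster 7, -0.52 in dividing-like and -0.35 in lymphoid-primed-like cells. By class the 5-FU medians differed in sign. The median was -1.30 in class II presenting-like cells, with 9 of 9 called lower (3.78% of all genes), and -0.20 in dividing-like cells, but 0.14 in MkE-primed-like cells (7 of 9 above 0), 0.13 in neutrophil-primed-like cells (7 of 9) and 0.11 in lymphoid-primed-like cells (5 of 9, with 3 called lower and 0 higher, against 11% of all genes lower). Egr1, an immediate early transcription factor, fell from 29.7 to 13.5 CPM untreated and from 329 to 175 after 5-FU in all kept cells. Jun, another, fell from 88.7 to 46.2 and from 502 to 323 CPM in LT-HSC-like cells. The edgeR fit called Egr1 alone of the list in all kept cells and Jun alone in LT-HSC-like cells. Their part in the Pim1 and Socs3 ratios was not tested. Of 10 interferon-induced genes, which report another JAK-STAT branch, 3 were called lower (Oas2, Bst2 and Ifi27l2a, named after their values were seen) and 0 higher in all kept untreated cells, with a median of -0.24. In untreated LT-HSC-like cells 4 of 9 were called lower (4.38% of all genes) and 0 higher, with a median of -0.48. In untreated lymphoid-primed-like cells 4 of 9 were called lower (12.2% of all genes) and 0 higher, with a median of -0.39. The counts were 3 of 8 (5.7%) and 0 in dividing-like cells (median -0.39), and 3 of 6 (5.89%) and 1 (4.17%) in cluster 7 (median -0.42). In untreated MkE-primed-like cells the median was 0.29, with 5 of 6 above 0 and 1 called higher (3.11% of all genes) and 1 lower. After 5-FU 1 was called lower in all kept cells and 0 in LT-HSC-like cells, with medians of 0.05 and -0.13. In 5-FU neutrophil-primed-like cells 3 of 9 were called higher (2.55% of all genes) and 0 lower (median 0.41, 9 of 9 above 0). In 5-FU MkE-primed-like cells 2 of 8 were called higher (2.39% of all genes) and 0 lower (median 0.37, 8 of 8 above 0). Over both libraries the fit in all kept cells called none of the 10, where it called 0.558% of 16489 genes in either direction.

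Genes with the most similar pattern were sought among 9907 genes with at least 500 UMIs in each library, by Pearson correlation of log2(CPM + 10) over the 15 clusters of a library, averaged over both libraries. This describes points that share a library and differ in depth. Each cluster was summed over both genotypes, whose mix differed, as in untreated cluster 3 with 131 wild-type and 1300 knockout cells. The part of that mix in the correlations was not tested. The closest to Socs2 were Fstl1 (mean r 0.88), Ryk (0.86) and Gda (0.85), and Gda was among the leading genes of the untreated LT-HSC-like cluster 2. The closest to Cish were Sult1a1 (0.92), Hacd4 (0.92) and Abcg3 (0.91), and Sult1a1 was a leading gene of LT-HSC-like cluster 2 in both libraries. The closest to Socs3 were Vldlr, Pcp4l1 and 4931406C07Rik (0.78 to 0.80), Vldlr leading the 5-FU lymphoid-primed-like cluster and Pcp4l1 the 5-FU LT-HSC-like cluster 10. Pim1 was closest to its paralog Pim2 (0.82), then to Tcn2 (0.77) and Pgap2 (0.76). Jak1 was closest to Rbl2 (0.92), Aff4 (0.90) and E130102H24Rik (0.90), Jak2 to Srgap3, Dnajb14 and Erc1 (0.84 to 0.86), Stat3 to Kremen1, Atat1 and Irak2 (0.83 to 0.84), and Stat5b to Gpatch8, Cnot4 and Ubr2 (each 0.88). Stat5a was closest to Cpne2, Slc18a2 and March8 (0.80 to 0.82), and Socs1 to Nit1, Arl8a and Prmt2 (0.80 to 0.84). Between Socs2 and Cish, r was 0.96 over untreated and 0.49 over 5-FU clusters.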

How the data were processed

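The deposited values were raw UMI counts for each gene and barcode, which the authors obtained with Cell Ranger (version 4 for the untreated and 6.0.1 for the 5-FU library per the file headers). The submitters' processing notes name the build mm9, and coordinates here come from the GRCm38 references only. The untreated matrix was given the gene names of the 5-FU library once its row order had been checked (correlation of log counts 0.919 in order, at most 0.393 when shifted). The untreated matrix was unfiltered, and cells were barcodes with at least 2921 UMIs, giving 23931 cells. The 5-FU matrix held 12753 called cells. Tags were classified with HTODemux (Seurat 5.3.0, quantile 0.99), and the study's methods gave the genotype of each tag. The outer 2% of cells at either end of UMIs, detected genes or mitochondrial share, and those with at least 2 UMIs from 9 lineage genes, were removed. Cells with both tags were removed as doublets, and doublets within a genotype remain.

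Clustering used scanpy 1.11.5 (2000 variable genes, 30 components, 20 neighbours, Leiden resolution 1). A cluster of at least 100 cells was named when at least 3 markers of a class, and more than 50% of them, were raised 1.5-fold and no other class had as large a share or more markers among the 10 leading genes, the cell minimum being set after the clusters were seen. UMIs were summed per genotype, library and class. Levels have exact Poisson and ratios exact conditional binomial 95% intervals, which cover counting error only. The count fit used edgeR 4.0.16 (TMM, at least 50 UMIs, quasi-likelihood test), tested on simulated data first, with DESeq2 1.42.0 as an alternative. The SE given with an edgeR fit was derived from its test, as the absolute log2 fold change over the square root of the F statistic. Pool totals ranged from 32207216 to 84284046 UMIs. Besides the 10 members and Sin3b, listed genes were named when called in 1 direction in both libraries, and 3 similar genes per member. The members and lists were chosen with earlier results of these data known. Alternatives were the tag rule, filters, matching by cluster, thinning, clustering and scaling. The receptor result of the untreated library is not reported here.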

Additional observations from a re-analysis of the deposited data

Results flagged for a closer look

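The Socs1 ratio had opposite signs in the 2 libraries, although it was under 1.5-fold in both and did not pass the fit. In all kept cells the knockout-to-wild-type log2 ratio was 0.28 untreated (0.07 to 0.49) and -0.24 after 5-FU (-0.43 to -0.06). The difference between the libraries was not tested. In LT-HSC-like cells both intervals covered 0, and within clusters 0 of 8 intervals in either library left out 0. The cluster ratios were above 0 in 6 of 8 untreated clusters (median 0.27) and below 0 in 8 of 8 5-FU clusters (median -0.28).

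Socs2 and Cish were also measured in the cells left out of the genotype comparison. In the untreated library Socs2 stood at 14.4 CPM and Cish at 22.3 CPM in the 6283 cells with no tag. In the 1441 cells with both tags they stood at 15.6 and 23.0 CPM. These values were above the wild-type levels of 8.36 and 13.2 and below the knockout levels of 22.8 and 29.5. Sin3b stood at 29.0 and 60.2 CPM in these cells, against 81.8 in wild-type and 23.2 in knockout cells. The mix of genotypes among the cells with no tag was not tested. After 5-FU Cish stood at 22.1 CPM in cells with no tag and 21.9 in cells with both tags, against 21.7 in wild type and 30.6 in knockout cells. Socs2 stood at 23.4 and 27.4 CPM in these 5-FU cells, against 19.1 in wild type and 40.8 in knockout cells. Sin3b stood at 21.7 and 60.0 CPM in them, against 112 in wild type and 15.1 in knockout cells. The 5-FU cells with no tag were thus near the knockout level for Sin3b but nearer the wild-type level for Socs2 and Cish. Their median depth was 4162.5 UMIs, and the part of depth was not tested.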

How the results depend on the processing

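Genotypes were paired by library, which was a block in the fit, and the labels give no replicate numbers to pair by. An edgeR adjusted p under 0.05 was passed by 92 genes in all kept cells and 44 in LT-HSC-like cells. These counts were 211 and 98 with DESeq2, 568 and 12 with library size scaling, 564 and 500 with no low-count filter, and 225 and 327 with the 80% hashtag rule. Socs2 kept its direction and its side of the threshold in all of these fits. Cish in LT-HSC-like cells lost its call with library size scaling (log2 0.77, adjusted p 0.0534), and in all kept cells gained one with that scaling (0.0135) and with no filter (0.00936). With no filter, Socs3 (adjusted p 8.12e-05) and Pim1 (0.00991) were also called in LT-HSC-like cells.

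Of the 10 members, the number at least 1.5-fold higher became 1 untreated in all kept cells when matched by cluster, and 1 in untreated LT-HSC-like cells at Leiden resolution 0.5. In all kept 5-FU cells it became 2 with the mean of per-cell CPM, with thinning and at the lower fold threshold, and the number lower became 1 at that threshold. In 5-FU LT-HSC-like cells the number higher became 1 with no trimming and when matched by cluster. The number lower there became 1 with the 80% hashtag rule, and 0 with no trimming, when matched by cluster and at resolution 0.5, and 3 at the lower fold threshold (Stat3 added). In untreated LT-HSC-like cells the number lower became 1 with no lineage removal, no trimming, the mean of per-cell CPM, matching by cluster, clusters named at 2-fold, resolution 0.5 and the lower fold threshold. The Socs3 ratio of 5-FU LT-HSC-like cells reversed to 0.16 when matched by cluster, where cells of a cluster are compared with each other. Over the alternatives the log2 ratio of Socs2 ranged from 0.83 to 1.81 untreated and 0.99 to 1.15 after 5-FU in all kept cells, and from 0.70 to 1.54 and 0.76 to 1.03 in LT-HSC-like cells. That of Cish in LT-HSC-like cells ranged from 0.461 to 1.253 and 0.13 to 0.85, and that of Pim1 in all kept cells from -0.30 to -0.06 and -0.53 to -0.32. With 1 pool per genotype and library, mouse-to-mouse spread cannot be measured.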
